A study of Bos taurus with 6 samples.

Results

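Ovarian granulosa cells make oestradiol and progesterone from cholesterol, and the transcripts of 10 genes of that route were read here in bovine granulosa cells after a short exposure to the fibroblast growth factor FGF8, a signal that cells receive through FGF receptors. The genes are STAR, CYP11A1, HSD3B1, CYP19A1, HSD17B1, CYP17A1, FDX1, POR, SCARB1 and TSPO. They were chosen by name for their part in steroid synthesis or cholesterol import, and every probe that the platform annotation gives 1 of these symbols was taken, which yielded 14 of 43794 probes, or 10 of 15213 named genes. CYP19A1 and STAR had 3 probes each and the other 8 genes 1 each; no older synonym was needed. Of the 14 probes, 11 passed a brightness filter, and they represent 8 of the 10 genes. HSD17B1 and CYP17A1 did not pass.

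The cells came from Holstein follicles of 2 to 6 mm and grew for 5 days in serum-free MEM/F12 where treated and control cells alike had 10 ng/ml of FSH and 10 ng/ml of insulin. Treated cells received FGF8 at 10 ng/ml and are labelled 2 h; control cells are labelled 0 h, so FGF8 and the 2 h between them cannot be told apart. RNA of both was amplified in 2 rounds and hybridised together on 2-colour arrays. There were 3 replicates, each on 2 arrays with the dyes swapped, and no source used here says whether they came from separate animals or cultures, so p-values measure the spread between these 3 samples, which may be technical.

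Free cholesterol enters steroid synthesis at the inner mitochondrial membrane, to which the STAR protein brings it. There CYP11A1, with electrons passed on by the ferredoxin FDX1, cuts the side chain to give pregnenolone, which HSD3B1 turns into progesterone. Theca cells use CYP17A1 to make androgens, and granulosa cells use CYP19A1, the aromatase, to turn androgens into oestrogens, with electrons from the reductase POR for both enzymes. HSD17B1 reduces oestrone to oestradiol. SCARB1 is the receptor that takes up cholesterol from high-density lipoprotein, and TSPO is a cholesterol-binding protein of the outer mitochondrial membrane. FSH keeps CYP19A1 high in granulosa cells.

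All ratios below come from the deposited values and are log2, with treated RNA over control RNA, where 0 is no difference and 1 a doubling, and a replicate's ratio is the mean of its 2 dye-swapped arrays. Median foreground intensity over the probes was 108 to 192 in Cy3 and 110 to 163 in Cy5. A spot was called above background when its foreground exceeded the 95th percentile of the 153 negative control spots of the same channel, which lay between 94.0 and 173.2. On single arrays 58.1 to 65.4% of probes exceeded it. The number of arrays limits the precision.

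The cell type label was compared with marker genes. Of 16 granulosa markers 14 were measured, among them the FSH receptor FSHR, the inhibin subunit INHA and the hormone AMH, while FOXL2, a defining transcription factor of these cells, had no probe that passed. Of 12 theca and stroma markers 10 were measured. The theca marker INSL3 was among them, above the limit on 5 of 6 arrays in treated and 4 of 6 in control RNA, while the theca marker CYP17A1 and the smooth muscle gene TAGLN did not pass. Markers of other cells also passed: 7 of 8 endothelial ones, such as KDR and TEK but not PECAM1, and 6 of 9 leukocyte and blood ones, which were PTPRC, CD14, CD68, CD3E, HBA and LYZ but not CD79A, HBB or ITGAM. Of 8 oocyte markers, BMP15, ZP3 and NLRP5 passed, and GDF9, ZP2, ZP4, ZAR1 and DPPA3 did not. Most granulosa markers were thus measured, and so were markers of other cell types. Of all 15213 named genes 11188 passed the same filter, so these counts do not single out granulosa cells. Some markers of other cells were dim, as their summed foregrounds below show.

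How bright each probe was decided what could be read from it. STAR's brightest probe had foregrounds 78.6 to 240.7 times the limit, FDX1 71.0 to 164.6 times, HSD3B1 18.2 to 55.9 times and CYP11A1 17.4 to 81.7 times, in both RNAs and on all 6 arrays. These ratios to the limit show that transcripts of the import, side-chain cleavage and progesterone steps were detected; they set no order between genes, since probes differ in how well they bind. The better of the CYP19A1 probes was much nearer to the limit, at 1.64 to 3.59 times, although its gene is the one that defines oestradiol synthesis. SCARB1 was at 1.65 to 7.98 times and TSPO at 1.33 to 3.46 times. POR was at 1.02 to 1.54 times, above the limit in both RNAs on all 6 arrays by a small margin.

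The genes that failed the filter lay at the limit itself. HSD17B1, the enzyme of the last step to oestradiol, exceeded it on 2 of 6 arrays in treated RNA and on 3 of 6 in control RNA, with foregrounds of 86 to 160 and 122 to 189. CYP17A1, the androgen-forming enzyme, exceeded it on 1 of 6 arrays in treated RNA and 3 of 6 in control RNA, with foregrounds of 90 to 170 and 113 to 202. The remaining CYP19A1 probe, EMBV3_08064, exceeded it on 2 of 6 arrays in treated and 1 of 6 in control RNA. No ratio is read from these 3 probes: their replicate means of -0.15 to 0.26 for the CYP19A1 probe, -0.32 to 0.12 for HSD17B1 and -0.42 to 0.34 for CYP17A1 describe spots close to the negative controls. Whether treated and control cells differ in these transcripts was not detectable on these arrays.

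**Figure D1:**
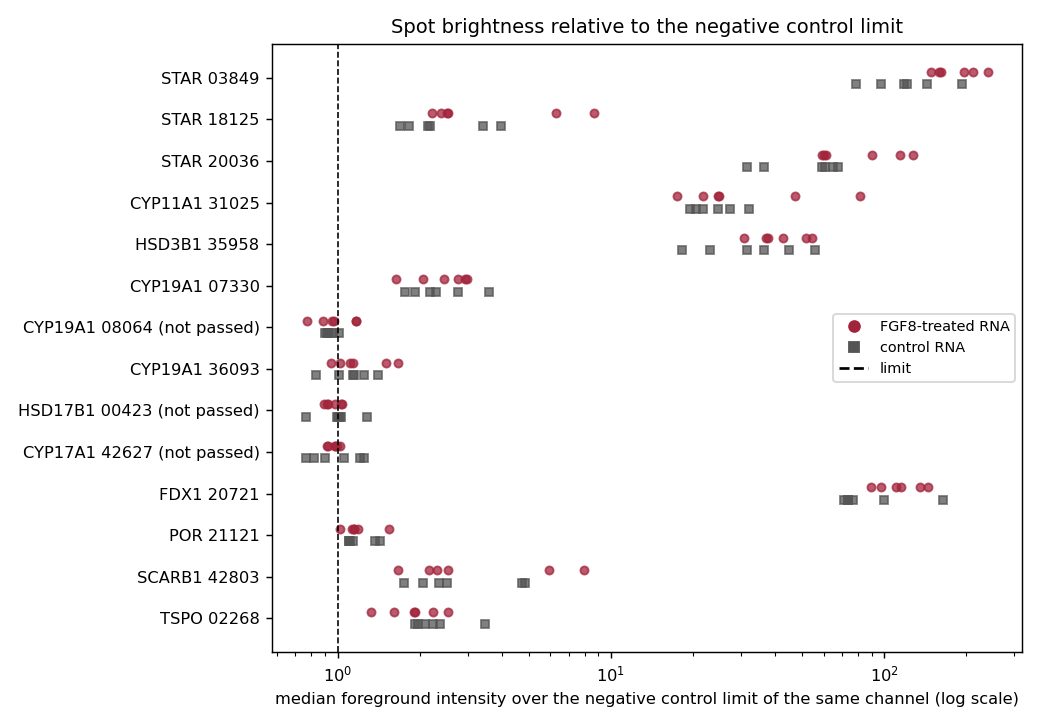
Median foreground intensity of each of the 14 probes divided by the negative control limit of the same channel and array (x axis, log scale), with 6 arrays for treated RNA (circles) and 6 for control RNA (squares); the dashed line is the limit. STAR, FDX1, HSD3B1 and CYP11A1 have probes far right of the line, while HSD17B1, CYP17A1 and 1 CYP19A1 probe lie on it; positions show detection and not an order of transcript levels.

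FGF8 treatment gave no called difference in any of the 11 probes that passed. In limma's test of the 3 replicate ratios against 0, 0 of them passed an adjusted p of 0.05, where 0.00368% of all 27210 probes tested did; that is the single unnamed probe EMBV3_13476, at 2.93 ± 0.15 (SD, n = 3; named here after its values were seen). The smallest adjusted p among the 11 was 0.856. At an unadjusted p under 0.05 there were 2, a STAR probe on the higher side and TSPO on the lower side, against 4.94% of all probes in either direction, 2.82% higher and 2.13% lower. By genes, TSPO was 1 of 8, against 5.52% of all genes. Over the 8 genes measured, each by its brightest probe, the median ratio was -0.0041 and 4 lay on each side of 0, beside a median of 0.0054 over 11188 genes.

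**Figure D2:**
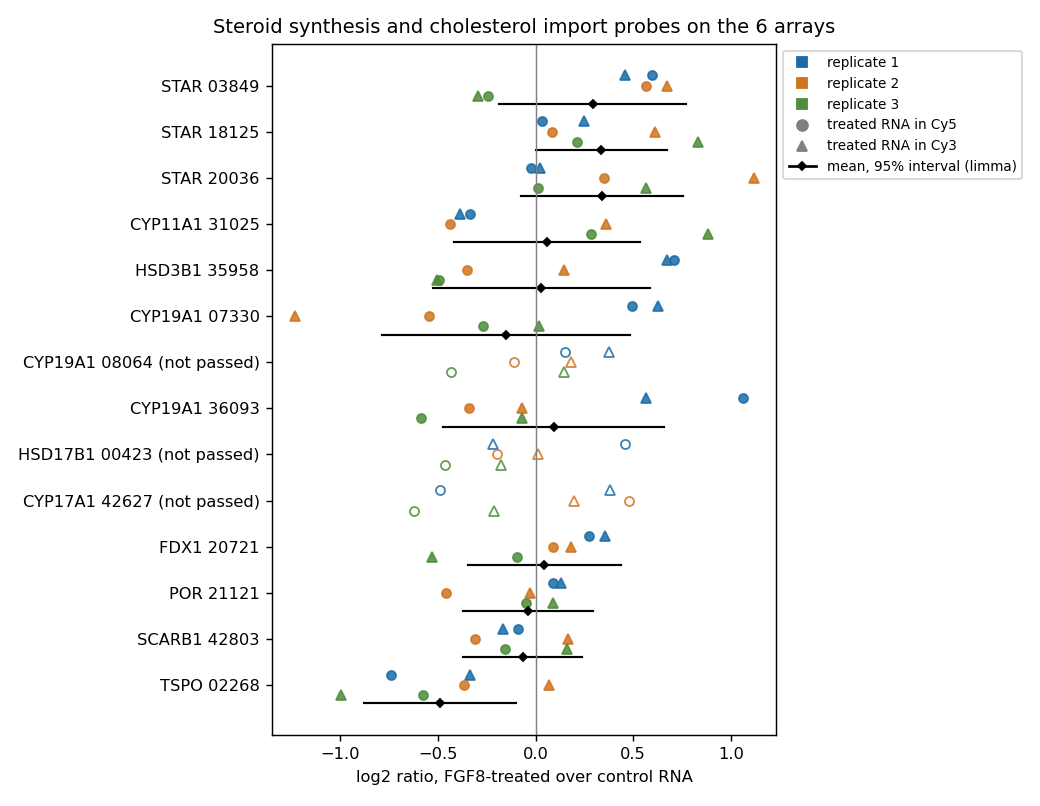
Log2 ratio of FGF8-treated over control RNA (x axis) for each probe, named by gene and the last digits of its identifier, on each of the 6 arrays; colours are replicates, circles and triangles the dye orientations, open symbols probes that did not pass the filter, and diamonds with bars the mean and 95% interval of limma over 3 replicates. Of the 11 intervals, that of TSPO lies below 0 and that of 1 dim STAR probe just above it, while those of HSD3B1 and CYP19A1 span 0 with replicates on both sides.

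STAR, which carries cholesterol into the mitochondrion, was read by 3 probes. Its brightest probe, EMBV3_03849, had ratios of 0.60 and 0.46 on the 2 arrays of replicate 1, 0.57 and 0.67 on those of replicate 2, and -0.24 and -0.29 on those of replicate 3, the array with treated RNA in Cy5 given first here and below. Replicates 1 and 2 were thus higher in treated cells and replicate 3 lower, with both dye orientations on the same side each time. The mean was 0.29 ± 0.49 (SD, n = 3), a 1.22-fold difference, with a 95% interval of -0.19 to 0.77 (limma adjusted p = 0.856).

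The other probes of STAR placed replicate 3 on the opposite side. Probe EMBV3_18125 was dim, with foregrounds 1.68 to 8.67 times the limit. It had ratios of 0.034, 0.25, 0.087, 0.61, 0.21 and 0.83 over the 6 arrays in the same order. It was the only one of the 11 with 1 sign on all of them. Of all 27210 probes, 3.34% were higher and 2.50% lower on all 6. Its mean was 0.34 ± 0.19 (SD, n = 3) with an interval of 0.0027 to 0.67, unadjusted p = 0.0487 and adjusted p = 0.856 in limma. Probe EMBV3_20036 had -0.023, 0.023, 0.35, 1.12, 0.013 and 0.57, a mean of 0.34 ± 0.37 (SD, n = 3) and an interval of -0.072 to 0.75.

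The 3 STAR probes gave close means, 1.22-fold, 1.26-fold and 1.27-fold, from different replicate values. In replicate 1 they stood at 0.53, 0.14 and 0.00018, in replicate 2 at 0.62, 0.35 and 0.73, and in replicate 3 at -0.27, 0.52 and 0.29. The latter 2 probes both averaged 0.11 over the arrays with treated RNA in Cy5, and 0.56 and 0.57 over those with it in Cy3. That dye difference did not pass, with adjusted p = 0.159 and 0.174 in limma, where 8.24% of all probes had a called one, and 0 of the 11 did. Between the dye orientations 4 of the 11 probes had means of opposite sign, as 48.8% of all probes had. Which STAR probe follows the transcript most closely was not tested.

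TSPO, on the outer mitochondrial membrane, stood lowest of the 8 genes. Its ratios were -0.74 and -0.34 in replicate 1, -0.37 and 0.070 in replicate 2, and -0.58 and -0.995 in replicate 3. Lower values were seen on 5 of 6 arrays, the exception being 1 array of replicate 2. The mean was -0.49 ± 0.32 (SD, n = 3), 1.41-fold lower in treated cells, with an interval of -0.88 to -0.10, unadjusted p = 0.0208 and adjusted p = 0.856 in limma. The gene has 1 probe, and with foregrounds of 153 to 343 in treated RNA and 263 to 412 in control RNA it is a dim one.

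SCARB1, the lipoprotein receptor, varied least of the 8 genes. Its replicate ratios were -0.13, -0.074 and 0.0030, with a mean of -0.066 ± 0.066 (SD, n = 3). The interval of -0.37 to 0.24 (limma, adjusted p = 0.947) leaves room for 1.29-fold lower to 1.18-fold higher in treated cells. Its mean over the arrays that carried treated RNA in Cy5 was -0.19, and over the arrays that carried it in Cy3 0.053.

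Of the enzymes that make pregnenolone and progesterone, CYP11A1 and HSD3B1 had their replicates in opposite orders. CYP11A1, the side-chain cleavage enzyme, had ratios of -0.34 and -0.39 in replicate 1, -0.44 and 0.36 in replicate 2, and 0.28 and 0.88 in replicate 3. It was lower in treated cells of replicate 1 and higher in those of replicate 3, and its mean was 0.061 ± 0.48 (SD, n = 3; interval -0.42 to 0.54, limma adjusted p = 0.969). HSD3B1 had 0.71 and 0.68 in replicate 1, -0.35 and 0.14 in replicate 2, and -0.49 and -0.51 in replicate 3. Replicate 1 was higher and replicate 3 lower in treated cells, and in both the dye-swapped arrays differed by less than 0.05. Its mean was 0.030 ± 0.61 (SD, n = 3), with an interval of -0.53 to 0.59 (limma adjusted p = 0.986).

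FDX1, the electron donor of CYP11A1, had ratios of 0.28 and 0.36 in replicate 1, 0.091 and 0.18 in replicate 2, and -0.097 and -0.53 in replicate 3. Replicates 1 and 2 were higher and replicate 3 lower, as for STAR's brightest probe. The mean was 0.046 ± 0.33 (SD, n = 3; interval -0.35 to 0.44, limma adjusted p = 0.970).

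The oestrogen step, read from CYP19A1, differed most between replicates. The brighter probe, EMBV3_07330, had ratios of 0.50 and 0.63 in replicate 1, -0.55 and -1.23 in replicate 2, and -0.27 and 0.020 in replicate 3. Treated cells of replicate 1 were higher and those of replicate 2 lower, and the range of 1.45 between replicates was the widest of the 11 probes. The mean was -0.15 ± 0.73 (SD, n = 3; interval -0.79 to 0.48, limma adjusted p = 0.939).

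The second CYP19A1 probe that passed, EMBV3_36093, had 1.06 and 0.56 in replicate 1, -0.34 and -0.071 in replicate 2, and -0.58 and -0.070 in replicate 3. Both probes put replicate 1 above 0 and the other two replicates below it, but the second stood at -0.21 in replicate 2 where the first stood at -0.89. Its mean was 0.093 ± 0.63 (SD, n = 3), so the means of the 2 probes have opposite signs within overlapping intervals. It exceeded the background limit on 5 of 6 arrays in each RNA. POR, the reductase, had replicate ratios of 0.11, -0.24 and 0.020 and a mean of -0.038 ± 0.18 (SD, n = 3; interval -0.37 to 0.29, limma adjusted p = 0.971).

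How often the replicates shared a sign was near the background. Of the 8 genes 1, TSPO, had 1 sign in all 3 replicates, where 26.3% of all 11188 genes did. By probes it was 3 of the 11, TSPO and the dimmer 2 of STAR, against 27.1% of all probes. The median SD between replicates was 0.40 over the 8 genes and 0.25 over all genes. The median ratio of the 8 genes stood at 0.21, -0.089 and -0.20 in replicates 1, 2 and 3, and that of all genes at -0.010, -0.00083 and 0.020.

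Whether the replicates differed by more than the dye-swapped arrays of 1 replicate was tested with a limma F test across the 6 arrays of all probes, with the dye as a term, chosen after these values were seen. Of the 11 probes 5 passed an adjusted p of 0.05, beside 16.4% of all 27210 probes. They were both probes of CYP19A1 (adjusted p = 0.00232 and 0.00755), HSD3B1 (0.00528), STAR's brightest probe (0.0187) and CYP11A1 (0.0341). The test takes its error from arrays of the same RNA, and it was run because the replicates had been seen to differ, so it restates that spread against technical noise and is no independent evidence of it. FDX1 (adjusted p = 0.161), TSPO (0.199), POR (0.518), SCARB1 (0.920) and the other STAR probes (0.108 and 0.494) did not pass.

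The dye-swapped arrays gave the same sign for 10 of the 11 probes in replicate 1, 7 in replicate 2 and 8 in replicate 3. Over all probes these shares were 61.2%, 47.9% and 58.4%. Pearson's r between the 2 arrays of a replicate was 0.912, 0.727 and 0.821 over the 11 probes, against 0.474, -0.107 and 0.450 over all 27210; these are descriptions across probes of the same arrays, which are not independent. The 11 hold 3 probes of STAR and 2 of CYP19A1, and several were far brighter than the median probe. No set of probes of like brightness was compared. Between replicates 1 and 2, 1 and 3, and 2 and 3, r over the 11 probes was -0.138, -0.251 and 0.273. Over all 27210 probes it was 0.0103, -0.00985 and 0.11. Within a replicate the arrays thus ordered the 11 probes alike. Between replicates they did not, and r between replicates was low over all probes as well.

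**Figure D3:**
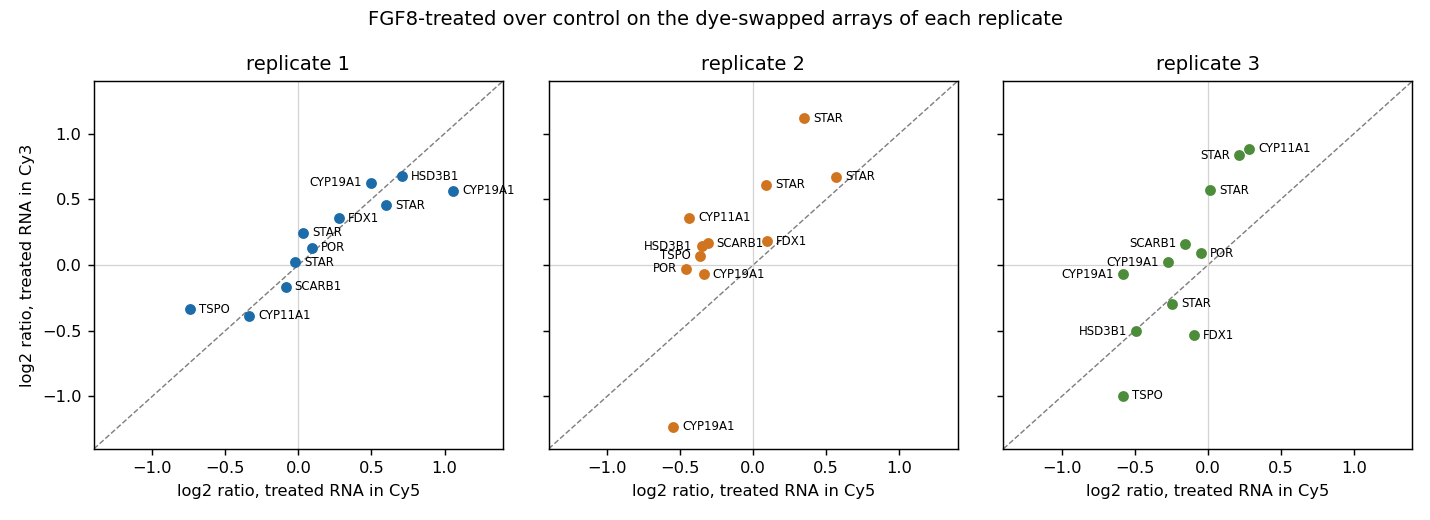
Log2 ratio of FGF8-treated over control RNA with treated RNA in Cy5 (x axis) against that with treated RNA in Cy3 (y axis) for the 11 probes that passed, 1 panel a replicate; the dashed line marks equal values. Points follow the line in replicate 1, where HSD3B1 sits at 0.71 and 0.68, and HSD3B1 moves to the lower left in replicate 3, at -0.49 and -0.51.

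Granulosa markers also had their highest median in replicate 1. Of the 13 measured markers outside the 10 genes, 9 were higher in treated cells of replicate 1, 5 of replicate 2 and 6 of replicate 3. Their medians were 0.60, -0.13 and -0.19. Of all 11188 genes 5461, 5572 and 5841 were higher in these replicates, with medians of -0.010, -0.00083 and 0.020. In replicate 1 the marker GJA1 stood highest, at 1.24 on its brightest probe, while its other probe averaged -0.051 over the replicates. INHA stood at 0.81 in replicate 1, the oestrogen receptor ESR2 at 0.76 and FSHR at 0.63, beside HSD3B1 at 0.69 and CYP19A1 at 0.56. CYP11A1 stood at -0.36 there, and the markers that were lower in replicate 1 were NR5A2 at -0.58, IHH at -0.30, AMHR2 at -0.055 and GATA4 at -0.042. In replicates 2 and 3 INHA had -0.36 and -0.19, ESR2 -0.61 and -0.27, and FSHR 0.024 and 0.30. The inhibin subunit INHBB had 0.60, -0.33 and 0.66 in replicates 1, 2 and 3. The activin-binding FST had 0.71, 0.12 and 0.62 and was higher on all 6 arrays, where 3.49% of all genes were. Theca and stroma markers had replicate medians of -0.00076, 0.075 and -0.10 over 10 genes. Those of endothelial markers were 0.15, 0.056 and 0.015 over 7 genes, also highest in replicate 1. Leukocyte and blood markers had -0.26, 0.043 and -0.11 over 6 genes, and oocyte markers -0.30, -0.045 and -0.18 over 3. The part of these markers in the ratios of the steroid genes was not tested. In bulk RNA, fewer cells of a type and less RNA per cell cannot be told apart.

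The summed foreground of the 14 granulosa markers was 136015 to 214265 in treated and 118130 to 187774 in control RNA over the arrays, and that of the theca and stroma markers 86327 to 102906 and 83221 to 102415. Endothelial markers summed to 839 to 1452 and 1044 to 1489 over 7 genes, and leukocyte and blood markers to 1951 to 2878 and 2164 to 3769 over 6. The medians of these last lists were 0.12 and -0.096. The 3 measured oocyte markers summed to 299 to 478 in treated and 421 to 608 in control RNA, with a median of -0.19. The limit for a single spot was 94.0 to 173.2, so endothelial and oocyte markers stood close to it on average. CDH5 passed the filter through treated RNA alone, and CD3E, NLRP5 and PDGFRB through control RNA alone. The filter thus bears on the side of these genes and can bear on the medians of their lists. In all 5 marker lists 0 genes passed the adjusted p of 0.05 over all probes, and of all 11188 genes 0 did.

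Among other enzymes and redox partners of steroid metabolism, no call was made either. Of all 11188 genes 0 passed, 5.52% had an unadjusted p under 0.05 in limma, and 5708 had a higher and 5480 a lower mean. Of 32 listed genes 20 were measured, 10 with a higher and 10 with a lower mean in treated cells (median -0.012). Of these 0 passed and 1 had an unadjusted p under 0.05 in limma. On the lower side the smallest p belonged to CYB5R3, the cytochrome b5 reductase, at -0.37 ± 0.27 and lower on all 6 arrays, where 2.50% of all genes were. HSD17B14, which oxidises oestradiol, stood at -0.33 ± 0.30, and HSD17B11, a lipid droplet dehydrogenase, at -0.37 ± 0.45. On the higher side were HSD17B7, which acts on oestrone and in cholesterol synthesis, at 0.34 ± 0.48, AKR1C4, an aldo-keto reductase, at 0.31 ± 0.35, and STS, the steroid sulfatase, at 0.13 ± 0.10 (SD, n = 3 each). AKR1C4 passed the filter through treated RNA alone, above the limit on 4 of 6 arrays against 1 of 6 in control RNA, so the filter bears on its side.

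Genes of cholesterol supply and transport lay on both sides of 0. Of 24 listed genes 18 were measured, 11 with a higher and 7 with a lower mean (median 0.082), where all genes split 5708 to 5480. In limma 0 passed and 3 had an unadjusted p under 0.05, where 0 and 5.52% of all genes did. ACBD3, a Golgi protein that binds TSPO and the PKA regulatory subunit, stood at 0.44 ± 0.17 on its brightest probe and was higher on all 6 arrays, where 3.49% of all genes were, with its other 2 probes at -0.056 and 0.19. NPC1, which exports cholesterol from lysosomes, stood at 0.27 ± 0.18, and SOAT1, which stores cholesterol as esters, at 0.22 ± 0.50. LIPA, which frees cholesterol from lysosomal esters, stood at -0.50 ± 0.40. SCP2, a sterol carrier, had -0.46 ± 0.44 on its brightest probe and 0.20 to 0.22 on its others. The lipoprotein APOE had -0.31 ± 0.30 on its brightest probe (SD, n = 3 each) and -0.096 on its other passed probe. The brightest was lower on all 6 arrays, where 2.50% of all genes were.

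Among regulators of steroid genes, NR4A1 had the smallest p. Of 26 listed genes 15 were measured, 8 with a higher and 7 with a lower mean (median 0.025). In limma 0 passed and 2 had an unadjusted p under 0.05, where 0 and 5.52% of all genes did. NR4A1, an orphan nuclear receptor that binds promoters of steroid genes, had replicate ratios of 1.27, 1.31 and 1.34 (limma adjusted p = 0.150). Its relative NR4A2, the other regulator with an unadjusted p under 0.05 in limma, had 0.32, 0.36 and 0.70. NR4A2 passed the filter through treated RNA alone, on 5 of 6 arrays against 2 of 6 in control RNA. The filter thus favours the higher side for NR4A2, and its p supports nothing. FSHR, through which FSH acts, had 0.63, 0.024 and 0.30. On the lower side the forkhead factor FOXO1 stood at -0.35 ± 0.24 and was lower on all 6 arrays, where 2.50% of all genes were. The cAMP-responsive factor CREB1 stood at -0.26 ± 0.064. NR5A2, which activates CYP19A1, stood at -0.46 ± 0.68 on its brightest probe and 0.044 and 0.050 on the others (SD, n = 3 each). CREB1 passed through control RNA alone, on 6 of 6 arrays against 3 of 6 in treated RNA, so the filter bears on its side too. NR5A1, the steroidogenic factor, had 0.025 ± 0.028.

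**Figure D4:**
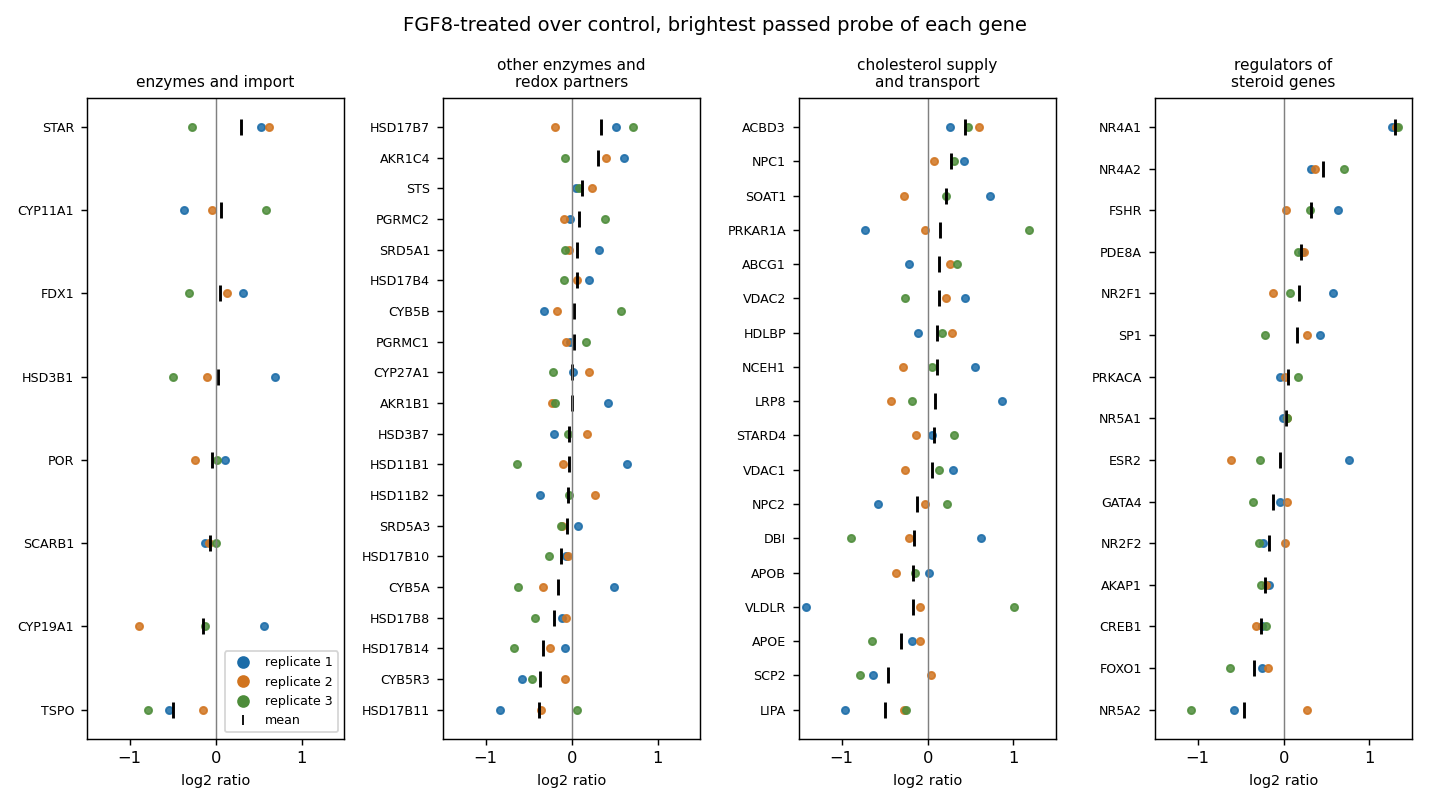
Log2 ratio of FGF8-treated over control RNA (x axis) in each replicate (coloured points) and as their mean (black ticks), for the brightest passed probe of each measured gene, in 4 panels: the 8 measured steroid synthesis and cholesterol import genes, 20 other enzymes and redox partners, 18 genes of cholesterol supply and transport, and 15 regulators. Replicates of HSD3B1 and CYP19A1 lie on both sides of 0, while those of NR4A1 lie together at 1.27 to 1.34.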

How the data were processed

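The deposited value table holds log2 ratios, 1 column per array. How the authors made it is not given in the sources used. On each of the 6 arrays it followed a treated over control ratio computed here from scanner medians, with local background subtracted and loess applied (r of 1 and slope of 1); column medians were 0.0025, 0.0030, 0.0018, -0.00085, 0.0063 and 0.0067. Per the file headers, each deposited scanner file gives spot intensity and the intensity around the spot, as scanned.

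Ratios of the 2 dye-swapped arrays of a replicate were averaged, and the 3 means were compared with 0 by the two-sided moderated test of limma 3.58.1 (R 4.3.3), Benjamini-Hochberg adjusted over all 27210 probes kept; 95% intervals came from the same fit. Each array holds both RNAs of 1 replicate number, which pairs them by construction. Kept probes lay above the 95th percentile of negative control spots in treated or in control RNA on at least 4 of 6 arrays and were not among the 143 ignored. Symbols came from the platform annotation (21790 probes with 1, 22004 with none), of which 20068 were current in RefSeq (ARS-UCD2.0), 1644 were updated through a synonym and 78 were not matched. The brightest kept probe stood for a gene. The fits were tested on simulated data. The genes and lists were chosen with earlier results of these data known. Every member is named, and of the other pathway lists the 3 genes of smallest p on each side. NR5A1 and the granulosa markers given with replicate values were named outside that rule, with their values known.

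Alternatives were scanner values with normexp (offset 50), other normalizations, filters, dye orientations and variance models, 6-array fits, and leaving out each replicate. No label states the slide. Numbers in the array names may mean that replicates 2 and 3 shared 1; if so, the fit without replicate 1 is within it. Probe and promoter sequences and coordinates were not used here.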

Additional observations from a re-analysis of the deposited data

How the results depend on the processing

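Under 15 alternatives, 1 of which (6 arrays with no block) was chosen after seeing the data, 0 of the probes run passed, with adjusted p in limma no smaller than 0.265. The mean over a gene's probes was run for STAR and CYP19A1 only, and the filter of both RNAs on all arrays left out the second CYP19A1 probe. TSPO kept its sign in all of its 14 values (-0.66 to -0.32) and the 3 STAR probes in all of theirs (0.11 to 0.57). Over all probes, the count of called probes was 1, 15 with the replicate block, 19 on 6 arrays with no block, 10 with treated RNA in Cy5 alone and 0 in the 3 fits from scanner values; without single replicates it was 0 to 1. The 6-array fits take their degrees of freedom from arrays; with the replicate block 0 of the 11 probes passed and 2 had an unadjusted p under 0.05. That count of 2 became 1 from scanner medians with normexp and loess, with both RNAs above the limit on all arrays, with an intensity trend and with treated RNA in Cy5 alone, and was 1 to 2 without single replicates. The probes behind that count also changed. TSPO had an unadjusted p of 0.0945 in limma with treated RNA in Cy3 alone, 0.0615 without replicate 1 and 0.0951 without replicate 3. In the first 2 of these fits the count of 2 came from STAR probes EMBV3_18125 and EMBV3_20036. From scanner means it came from TSPO and EMBV3_20036. The replicate block changed no call of these genes.

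Of 155 probe values, 14 changed sign, and the cause was not tested. With treated RNA in Cy5 alone CYP11A1 stood at -0.16 and HSD3B1 at -0.045; with treated RNA in Cy3 alone POR stood at 0.063 and SCARB1 at 0.053. From scanner means the second CYP19A1 probe gave -0.0027 and SCARB1 0.059, and with centring in place of loess -0.026 and 0.032, where the median of all genes was 0.033. With that centring STAR's brightest probe stood at 0.46, CYP11A1 at 0.23, FDX1 at 0.21 and HSD3B1 at 0.19. The brighter CYP19A1 probe stood at -0.18, POR at -0.11 and TSPO at -0.40. The median of the 8 genes was then 0.11, against -0.0041 in the main fit. Over the alternatives that median ran from -0.12, with treated RNA in Cy5 alone, to this 0.11. Without single replicates CYP11A1 ranged from -0.20 to 0.27, the brighter CYP19A1 probe from -0.51 to 0.22, the second from -0.27 to 0.30, HSD3B1 from -0.30 to 0.29, FDX1 from -0.090 to 0.23 and POR from -0.11 to 0.065. Each of these turns leaves 1 replicate out: replicate 1 for HSD3B1, FDX1 and the second CYP19A1 probe, replicate 2 for POR and the brighter CYP19A1 probe, replicate 3 for CYP11A1. With only 3 replicates, the intervals of the 8 genes reach 0.30 to 0.63 to either side of the mean. Dim spots limit CYP19A1, POR, TSPO, SCARB1, HSD17B1, CYP17A1 and the STAR probe EMBV3_18125.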
